A study of Mus musculus with 3 samples.

Results

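The 3 coreceptor genes of mouse T cells, Cd4, Cd8a and Cd8b1, were chosen by name from the 18029 genes of the count table. Their RNA was followed in 10371 CD4+ and 10833 CD8+ donor T cells, across dose groups, across clusters, and in the lineage that should not carry it. Values of 2 members also chose the cells: every CD4+ cell held at least 1 Cd4 molecule and 0 Cd8a molecules, every CD8+ cell at least 1 Cd8a and 0 Cd4, so the contrast of these 2 genes between the lineages is a selection and not a finding. Surface protein sorted the lineages too, since every CD4+ cell had a CD4 antibody count of at least 62 and a CD8 antibody count of at most 20, and every CD8+ cell a CD8 antibody count of at least 21 and a CD4 antibody count of at most 54. Cd8b1 was not part of this selection: 3231 CD4+ cells carried it and 148 CD8+ cells did not. The rule that made the selection is not given in the sources used here, and these limits were read from the cells themselves.

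A mature T cell carries CD4 or CD8 beside its T cell receptor. CD4 is a single chain that binds MHC class II, whereas CD8 on conventional T cells is a pair of chains, CD8α encoded by Cd8a and CD8β encoded by Cd8b1, that binds MHC class I. CD4 and CD8α hold the kinase Lck at the receptor, and their genes are set in the thymus by lineage factors such as ThPOK (Zbtb7b) for CD4 and Runx3 for CD8.

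All recipients were B6D2F1 mice that had been transplanted with B6 bone marrow, B6 T cells and a small number of TEa cells, T cells with 1 transgenic receptor for a recipient alloantigen from a Rag1-/- donor line. Every recipient thus had a B6 graft against an F1 host, and the groups differed only by daily treatment from day 0 to day 6, which was saline or cyclosporin (CSA, a calcineurin inhibitor) in a dose of 5 or 50 mg/kg. Spleens of 6 mice per group were taken on day 7 and combined by 2 into 3 pools, and the sorted lineages of each group were mixed 1:1 and captured once as a 5′ droplet library, with hashtag antibodies to tell the pools apart. Capture and treatment therefore cannot be told apart, and the pool was the replicate (n = 3 per group). The 280 TEa cells, all CD4+, were left out unless stated.

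Depth rose with dose in both lineages. The median number of unique molecular identifiers (UMIs, 1 per counted RNA molecule) per CD4+ cell, averaged over pools, was 3083 with saline and 4386 and 5976 with the low and the high dose, and per CD8+ cell 4115, 6034 and 7161. A pool held 875 to 1479 CD4+ and 692 to 1615 CD8+ cells. T cell genes were present throughout: 9 of the 10 T cell markers were detected in each lineage and the tenth was the selected-out coreceptor gene. Among markers of other cells, the summed level of 6 B cell genes was 77.6 to 364 CPM (UMI counts scaled to a library of fixed size), highest in CD8+ cells at 50 mg/kg, with Ms4a1 at 0 in CD4+ cells at 50 mg/kg. Of 5 dendritic cell genes, whose cells can carry Cd8a, the sum in CD8+ pools was 108 to 188 CPM, with Flt3 at 0 throughout. Of 5 erythroid genes, such as Hbb-bs and Alas2, each was detected in both lineages of every group, and the sum was 3.21 to 17.6 CPM in saline pools of either lineage, 4.87 to 10.1 with the low dose and 23.7 to 48.1 with the high dose, so it moved with dose. The sum of 4 NK cell genes (Ncr1, Klrb1c, Klre1 and Gzma) in CD4+ cells was 327 to 469 CPM with saline. It was 298 to 375 with the low dose and 37.6 to 92.9 with the high dose, with Ncr1 at 0 in the first 2 groups. In CD8+ cells the sum was 1220 to 1626, 1655 to 2021 and 1115 to 1293. Gzma is also an effector gene of T cells, so this sum does not measure NK cells alone. The part of B, dendritic, erythroid or NK cells in the results below was not tested. Of all barcodes, 218 occurred in more than 1 capture. The share of cells with 2 strong hashtags averaged 2.66%, 4.16% and 5.18% in CD4+ cells by rising dose and 3.62%, 7.77% and 6.59% in CD8+ cells.

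All 3 genes lie on chromosome 6 of the mouse (build GRCm38, GENCODE annotation). Cd8b1 spans chr6:71322788-71337494 on the plus strand and Cd8a chr6:71373427-71379173 on the same strand, with 35.9 kb between them, whereas Cd4 spans chr6:124864692-124888221 on the minus strand. The lncRNA Gm44174, at chr6:71353035-71373284 on the plus strand, ends 0.143 kb before Cd8a starts, so that its annotated end falls inside the Cd8a promoter. The 250 bases before the Cd8a start, at chr6:71373177-71373426, are shown because the Cd8a and Cd8b1 levels moved apart in these data, with E-boxes in capitals (CANNTG, the letters read by E proteins such as Tcf3 and Tcf12). The sequence is from RefSeq (build GRCm38.p6).
Cd8a promoter: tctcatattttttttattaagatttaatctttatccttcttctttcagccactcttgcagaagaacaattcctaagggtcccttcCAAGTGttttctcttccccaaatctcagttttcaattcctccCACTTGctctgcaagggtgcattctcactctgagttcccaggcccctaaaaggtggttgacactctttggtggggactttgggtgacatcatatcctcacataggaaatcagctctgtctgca
The E-boxes begin 165 bases (CAAGTG) and 123 bases (CACTTG) before the start and are each other's reverse complement. An E-box was found in 66.2% of the 32851 mouse promoters of this length. The Tcf core CAAAG was found at 2 places in the Cd8a window, on either strand, and in 48.6% of promoters. The strings TGTGGT (for Runx), CCGGAA (for Ets) and AGATAA (for GATA factors) had 0 matches on either strand, against 14.05%, 12.03% and 9.99% of promoters. Shorter forms, such as GGAA, which the printed letters hold, were not counted. These letter matches are descriptions only. Promoters of Cd4 and Cd8b1 were not used here.

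In CD4+ T cells, Cd4 RNA fell with dose. On the edgeR scale (CPM after TMM scaling, which sets the middle of all genes near no change), Cd4 in the saline pools was 647, 626 and 603. The low dose gave 529, 476 and 493, and the high dose 371, 356 and 357. Groups of pools did not overlap. The log2 change was -0.32 (SE 0.04) at 5 mg/kg and -0.79 (SE 0.04) at 50 mg/kg, a level 1.25-fold and 1.73-fold lower, with adjusted p = 1.47e-06 and 4.85e-13 by edgeR's quasi-likelihood test. The background was broad: of the 10568 genes tested, 25.6% were lower and 26.1% higher with 5 mg/kg. The shares for 50 mg/kg were 35.8% lower and 34.7% higher. Between the doses, Cd4 was 1.38-fold lower at 50 than at 5 mg/kg (adjusted p = 1.91e-08, edgeR). Counted as UMIs per cell, while depth rose with dose, the fall was smaller. Mean Cd4 UMIs per CD4+ cell were 1.18-fold lower at 5 and 1.27-fold lower at 50 mg/kg.

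Because a cell without a Cd4 UMI could not be a CD4+ cell here, and because depth differed, the Cd4 level was also estimated as a zero-truncated Poisson rate, the level of a gene whose zeros are unseen. This rate in CPM was 691, 678 and 649 in the saline pools, 416, 365 and 386 at 5 mg/kg, and 268, 252 and 259 at 50 mg/kg. Again the 3 groups did not overlap (exact Jonckheere-Terpstra permutation test for a trend over 9 pools, two-sided p = 0.00119, the smallest that test can give). In cells of 4000 to 6000 UMIs, where depth is alike, the fall was smaller, with a log2 change of -0.22 (SE 0.07, adjusted p = 0.00811) at 5 and -0.34 (SE 0.07, adjusted p = 3.91e-05) at 50 mg/kg, and the 2 doses were then not told apart (log2 -0.13, adjusted p = 0.196, all by edgeR, in a window chosen after seeing the data).

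In CD8+ T cells, Cd8b1 rose steeply with dose. Its level in the saline pools was 1032, 1098 and 1016 CPM (TMM-scaled). It was 1581, 1535 and 1559 with the low dose, and 3069.8, 3286 and 3042 with the high dose. No pool of one group reached the range of another. The log2 change was 0.57 (SE 0.04, adjusted p = 7.58e-10) at 5 mg/kg and 1.58 (SE 0.04, adjusted p = 5.16e-16) at 50 mg/kg by edgeR, a level 1.49-fold and 2.99-fold that with saline. Of 10841 genes tested in CD8+ cells, 29.9% were higher and 30.3% lower with the low dose. The high dose had 37.1% higher and 36.9% lower. In cells of 4000 to 6000 UMIs the Cd8b1 change was 0.76 and 1.73 on the log2 scale, so it was not smaller at equal depth.

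Cd8a, the partner chain, moved less. Its TMM-scaled level in the saline pools was 475, 484 and 482. The low dose gave 522, 488 and 535, and the high dose 754, 747 and 650.0. The pools at 50 mg/kg were above all the others, and those at 5 mg/kg began just above the highest saline pool. The log2 change was 0.10 (SE 0.05) at 5 mg/kg, which did not pass (adjusted p = 0.0994, edgeR), and 0.58 (SE 0.05) at 50 mg/kg, which did (adjusted p = 9.85e-09, edgeR).

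The direction of Cd8a depended on the scaling, as that of Cd4 and Cd8b1 did not. With library size alone, the middle of all genes stood at -0.37 and -0.45 (log2) in CD4+ cells and at -0.43 and -0.53 in CD8+ cells for 5 and 50 mg/kg, and every change below is lower by about that shift. On that scale Cd8a was lower at 5 mg/kg (log2 -0.32, adjusted p = 3.94e-05) and not different from saline at 50 mg/kg by the test (log2 0.047, adjusted p = 0.42), whereas Cd8b1 was still higher (0.15 and 1.05) and Cd4 still lower (-0.68 and -1.23), by edgeR. The zero-truncated rate of Cd8a, which is also a share of the library, averaged 541 ± 11.3 (SD), 445 ± 29.1 and 607 ± 53.4 CPM and no trend over dose passed the test (exact permutation p = 0.519, n = 3 pools per group). As a plain share of the library, Cd4 averaged 750 ± 23.7, 468 ± 28.2 and 320 ± 7.89 CPM, Cd8a 598, 478 and 618, and Cd8b1 1306, 1445 and 2702.

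**Figure D1:**
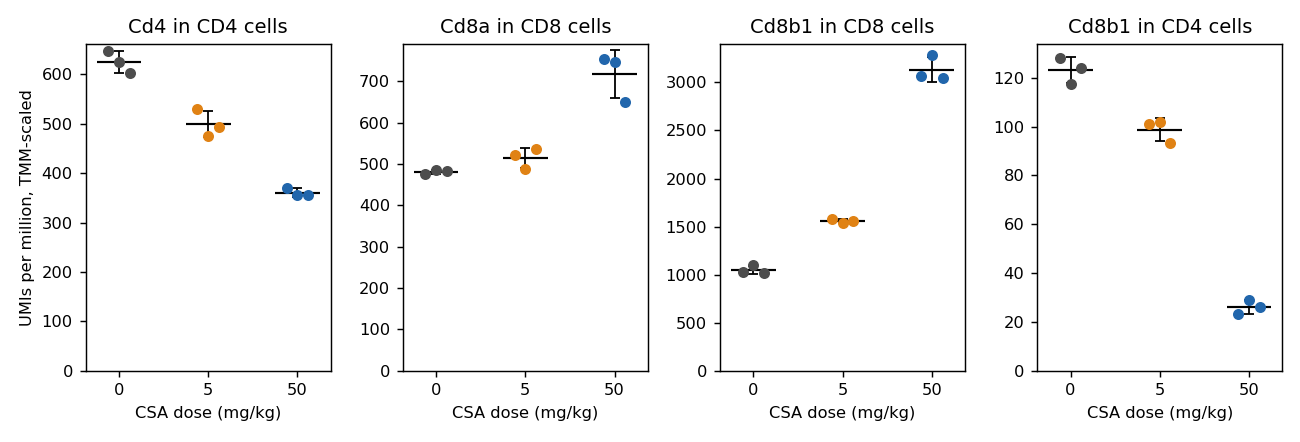
Levels of the coreceptor genes per pool by CSA dose (x axis, 0 is saline), in CPM after TMM scaling (y axis, from 0 in each panel). Points are the 3 pools of a group, the line is their mean and the bar the SD. Cd4 stepped down with dose in CD4+ cells, Cd8b1 stepped up in CD8+ cells from 1049 to 3133 on average, and Cd8b1 in CD4+ cells, the off-lineage level, stepped down from 123 to 26.2.

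The 2 chains of CD8 therefore came apart, and this can be read with no scaling at all. For each Cd8a UMI, the CD8+ cells of the saline pools held 2.17, 2.27 and 2.11 Cd8b1 UMIs. With the low dose they held 3.03, 3.15 and 2.91, and with the high dose 4.07, 4.40 and 4.68. The groups did not overlap (exact Jonckheere-Terpstra permutation test, two-sided p = 0.00119 over 9 pools, the smallest possible). UMIs of different genes are captured at unequal rates, so the ratio compares pools and not the amounts of the chains. The rise was also there at equal depth and outside the cycle: the means by rising dose were 2.20, 3.32 and 4.91 in cells of 4000 to 6000 UMIs, and 2.06, 2.91 and 4.77 in cells outside the cycling clusters.

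CD8+ cells with no Cd8b1 UMI became rarer as the gene rose. They numbered 126 of 4639 with saline (2.72%, exact 95% Clopper-Pearson interval 2.27 to 3.23%), 18 of 2662 with the low dose (0.676%, 0.401 to 1.07%) and 4 of 3532 with the high dose (0.113%, 0.0309 to 0.290%). The intervals cover counting error only. If every cell of a pool had the same Cd8b1 share of its UMIs, a Poisson count at its depth would leave 64.9, 15.1 and 0.242 such cells. In the saline group the cells without Cd8b1 had a median of 2699.5 UMIs against 4168 in the cells with it, and a CD8 antibody median of 67 against 93. Of the 126, 37 were among the 940 cells of the Cd226hi effector cluster and 10 among the 190 of the cluster named for Fcer1g. Others were 20 of 796 in C2 (cycling effector, Cd226lo), 18 of 449 in C5 (Tcf7hi) and 17 of 662 in C3 (cycling effector). C4 (cycling effector, Cd226hi) had 12 of 1015.

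Across CD8 clusters with saline, the level of Cd8b1 was more even than that of Cd8a. Clusters were made by the authors from the same counts and carry the study's names, matched to the CD8 cluster numbers by shares of cells per group and by markers, so these orders are a description with no test. Tox was at 97.5 CPM in C8, named exhausted, and at 244 in C5, with no split by dose. Tox fell by 4.07 (log2) in CD8+ cells at 50 mg/kg. C8 had 124 cells at that dose and 107 with saline, and C5 had 76 and 449. The Tox values therefore cannot decide the name. With saline, Cd8b1 ran from 1184 CPM in C4 (cycling effector, Cd226hi) to 1490.3 in C0 (Cd226hi effector), a 1.26-fold range in which every pair of neighbours overlapped between pools. The zero-truncated Cd8a rate ran from 407 in C1 (Cd226lo effector) to 959 in C8 (exhausted), a 2.36-fold range. In CPM, as used for Cd8b1, Cd8a had a 1.95-fold range. C8 stood clear of the next cluster, C5 (Tcf7hi), at 711, which overlapped C7 (naive), and so on in turn down to C0. C2 and C1 each stood apart below.

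At 50 mg/kg the order changed at both ends. Cd8b1 was highest in C0 at 3375 and in C1 at 3011, and C0 no longer overlapped C1, whereas C7 and C8 were lowest at 2233 and 2222. For Cd8a, C7 (768) and C8 (733) were highest and C1 (510.1) lowest, and every neighbouring pair overlapped. The ratio of Cd8b1 to Cd8a was lowest in C8 with saline, 1.34 ± 0.145 (SD), and highest in C1, 2.67 ± 0.279. At 50 mg/kg it was 5.68 ± 0.547 in C1, 5.37 ± 0.236 in C0, 3.03 ± 0.526 in C8 and 2.85 ± 0.134 in C7. In C8 the ratio with the low dose was 1.36 ± 0.0678 over 2 pools, beside 2.33 ± 0.177 in C7, the next above it.

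**Figure D2:**
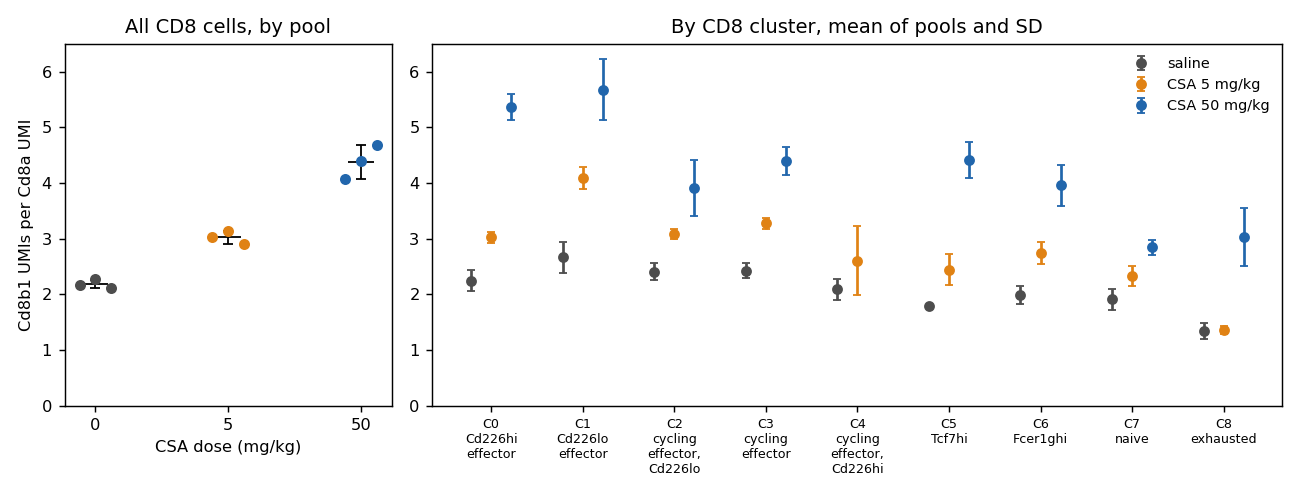
Cd8b1 UMIs per Cd8a UMI in CD8+ T cells (y axis). The left panel shows each pool by CSA dose with the mean and SD, and the right panel shows the mean and SD over pools for each CD8 cluster with at least 10 cells in at least 2 pools. The ratio was higher at 50 mg/kg than with saline in each of the 8 clusters shown for both, and ranged at 50 mg/kg from 2.85 in C7 to 5.68 in C1.

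Within CD8 clusters, more clusters passed for Cd8b1 than for Cd8a. Cd8b1 was higher with the low dose in 6 of 9 clusters and with the high dose in 8 of 8, by 0.73 (C7) to 1.74 (C0) on the log2 scale. Over all gene-by-cluster tests, 11.0% were higher with the low and 21.3% with the high dose. Cd8a was higher in 1 of 9 clusters at 5 mg/kg (C0, log2 0.37, SE 0.08) and in 4 of 8 at 50 mg/kg (C0 to C3, log2 0.21 to 0.64). In C5 and C8 the Cd8a change at 50 mg/kg was 0.012 and 0.0089 (SE 0.12 in each, adjusted p = 0.9501 and 0.9588, edgeR). With library size scaling Cd8a passed as higher in 0 clusters with the low dose and 1 with the high dose. Cd8b1 passed as higher in 3 with the low dose. Clusters with lower Cd8a were not counted on that scale. C4 had too few cells at 50 mg/kg for a test.

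In CD4+ cells, the level of Cd4 as a share of the library varied widely between clusters. With saline, the zero-truncated rate was highest in C4, the follicular helper cluster, at 1038 ± 63.4 CPM (SD, n = 3 pools), followed by C0 (Cd226hi effector) at 870.2 ± 41.7, both clear of their neighbours. C7 (cytotoxic CD4), C6 (cycling effector, Cd226hi), C10 (Isg15hi), C8 (Fcer1ghi) and C5 (cycling effector), from 701 down to 643, overlapped in turn. Below them C1 (Cd226lo effector, 449), C2 (Tcf7hi precursor-like, 387) and C3 (cycling effector, Cd226lo, 305) each stood apart from the one above, and C3 overlapped C9, the naive cluster, at 292 ± 88.3. From C4 to C9 the range was 3.56-fold. Median depth also differed, from 1981 UMIs in C9 to 6594.5 in C3. Per cell the order was another: C6 held 4.34 Cd4 UMIs, C7 3.82, C5 2.97, C4 2.93, C0 2.78, C3 2.52 and C9 1.38.

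By the zero-truncated rate, the clusters were less clearly apart with the high dose, while C4 was still first and C3 and C9 last. C4 averaged 780 ± 446 CPM over few cells, 45 in all, and C6 was 550 ± 45.7 over 2 pools. C2 was apart from C6, and every cluster from C2 at 351 down to C9 at 161 overlapped the next one down. C0, second with saline, was 334 ± 17.8 and overlapped C2 at 351 ± 19.3. The saline value of the precursor-like C2 was 387 ± 12.3.

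**Figure D3:**
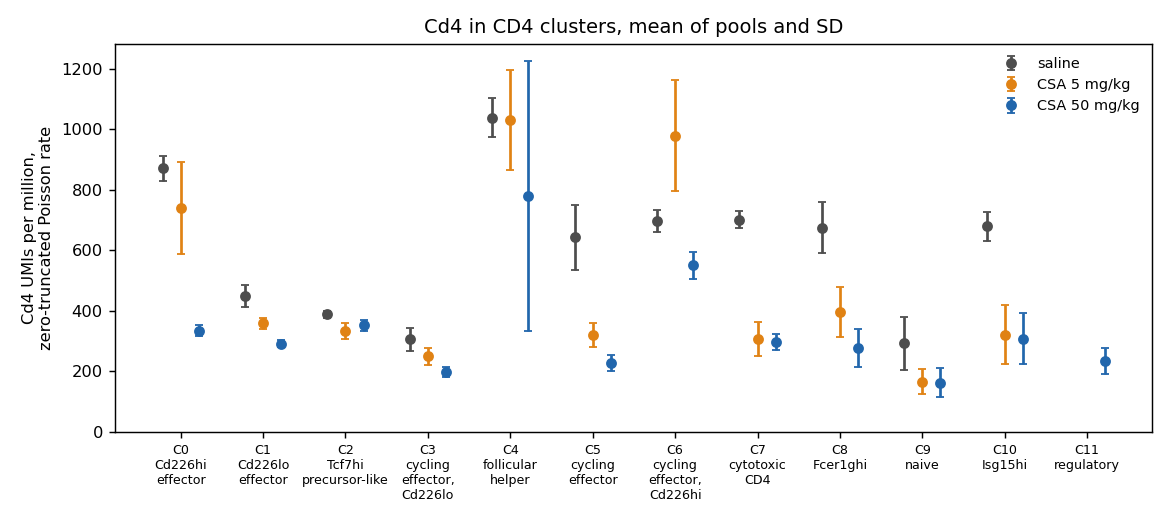
Cd4 level by CD4 cluster (x axis) and dose (color), as a zero-truncated Poisson rate in CPM (y axis), mean and SD over pools with at least 10 cells, for clusters with at least 2 such pools. C4 and C0 were highest with saline at 1038 and 870.2, and C0 was at 334 with 50 mg/kg. The follicular helper cluster at 50 mg/kg had 45 cells and an SD of 446.

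Tests between doses inside clusters followed the same lines. Cd4 was lower at 5 mg/kg in 4 of 11 clusters (C1, C5, C7 and C10) and higher in 1 (C6, log2 0.57, SE 0.11), and at 50 mg/kg it was lower in 8 of 11, by 0.50 to 0.96 on the log2 scale. The exceptions at 50 mg/kg were C2 (log2 -0.15, SE 0.08), C4 (-0.12, SE 0.18) and C6 (-0.07, SE 0.21), which did not pass by edgeR. Of all gene-by-cluster tests in CD4+ cells, 5.53% were lower with the low and 15.4% with the high dose. With library size scaling Cd4 was lower at 5 mg/kg in 8 clusters. C6 at 5 mg/kg was also a shallower cluster, with median UMIs of 2536 against 5675 with saline.

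Cd8b1 was also counted in CD4+ cells, where it is off lineage, and there it went the opposite way. Its TMM-scaled level in CD4+ cells was 128, 117 and 124 CPM in the saline pools. The low dose gave 101, 102 and 93.3, and the high dose 23.4, 29.0 and 26.3. The groups did not overlap. The log2 change was -0.32 (SE 0.06, adjusted p = 0.000220) at 5 mg/kg and -2.23 (SE 0.07, adjusted p = 2.61e-16) at 50 mg/kg by edgeR, a 1.25-fold and 4.68-fold fall. In cells of 4000 to 6000 UMIs the change at 5 mg/kg was -0.029 (adjusted p = 0.864, edgeR) and that at 50 mg/kg -1.77.

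The change of Cd8b1 in CD8+ cells minus that in CD4+ cells of the same pools was 0.86 (SE 0.06, adjusted p = 9.79e-09) at 5 mg/kg and 3.77 (SE 0.07, adjusted p = 3.55e-22) for the high dose, by edgeR with pool as a block. Such a difference passed for 3.57% of 11177 genes with the low and 19.3% with the high dose. Per pool, the share that Cd8b1 had in CD4+ cells relative to CD8+ cells was 11.9%, 10.3% and 11.8% with saline. The low dose gave 6.53%, 6.72% and 5.94%, and the high dose 0.784%, 0.902% and 0.892%. The 3 groups were separate (exact permutation trend test, two-sided p = 0.00119 over 9 pools).

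Counted by cells, off-lineage Cd8b1 was common with saline and rare at the high dose. After each cell was thinned to 2000 UMIs, 978 of 3663 CD4+ cells with saline held a Cd8b1 UMI (26.7%, exact interval 25.3 to 28.2%, which covers counting error over the cells of 3 pools only, as do those that follow). The low dose had 467 of 2517 (18.6%, 17.1 to 20.1%), and the high dose 122 of 2984 (4.09%, 3.41 to 4.86%), with 395, 452 and 80 shallower cells left out. Unthinned shares averaged 40.6%, 35.4% and 13.6% over pools. In CD8+ cells, thinned alike, the share was 89.1%, 92.3% and 98.5%. The thinned share in CD4+ cells fell over the 9 pools without overlap (exact permutation trend p = 0.00119).

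Off-lineage Cd8b1 per cell varied little with the depth of the cell with saline and the low dose. Per CD4+ cell it was 0.538, 0.535 and 0.563 UMIs in the saline pools. It was 0.447, 0.483 and 0.457 with the low dose and 0.138, 0.172 and 0.165 with the high dose, with no overlap (exact permutation trend p = 0.00119, two-sided). Across depth bins, from under 2000 to over 6000 UMIs, it ran from 0.494 to 0.620 with saline and from 0.425 to 0.519 at 5 mg/kg, while its CPM fell from 280.4 to 75.2 and from 278 to 57.2. At 50 mg/kg it rose with depth, from 0.0625 to 0.196 UMIs per cell, the lowest bin holding 80 cells.

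Clusters gave a like picture. The 11 CD4 clusters with saline held 0.469 to 0.639 Cd8b1 UMIs per cell although their median depth differed 3.33-fold, and at 5 mg/kg 0.409 to 0.549 with a 6.40-fold difference in depth. In CPM, the clusters then differed 2.94-fold and 7.00-fold. At 50 mg/kg the number was 0.0720 in C4 to 0.208 in C11, a wider relative range at low counts. In CPM, Cd8b1 was lower in 4 of 11 clusters at 5 mg/kg (C1, C2, C3 and C5) and in 10 of 11 at 50 mg/kg (edgeR). It was higher at 5 mg/kg in C4 (log2 0.93, SE 0.19) and C6 (log2 0.69, SE 0.20), whose depth fell, from 2475 to 1506 and from 5675 to 2536 median UMIs, and whose Cd8b1 UMIs per cell were 0.501 and 0.549 in C4 and 0.571 and 0.467 in C6. Without saline pool 2, 1 cluster passed as lower at 5 mg/kg, and 2 without saline pool 3 or pool 1 or 3 of the low dose.

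**Figure D4:**
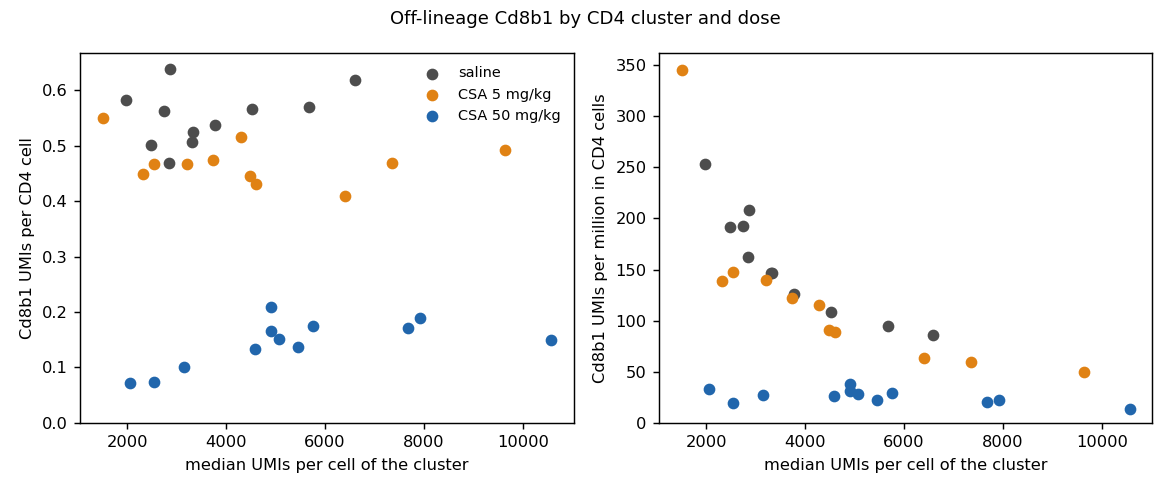
Off-lineage Cd8b1 in CD4+ clusters by dose, against the median UMIs per cell of the cluster (x axis). The left y axis gives Cd8b1 UMIs per cell and the right one the mean CPM, and each point is 1 cluster in 1 dose group with at least 10 cells in at least 2 pools. UMIs per cell lay between 0.409 and 0.639 with saline and 5 mg/kg and at most at 0.208 with 50 mg/kg, while the CPM declined with depth.

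Of 5 features of CD4+ cells with a Cd8b1 UMI, only depth passed after thinning, and its direction turned without thinning. Per pool, the 5 features were compared between CD4+ cells with and without it, by an exact sign-flip permutation test over 9 pools (smallest p 0.00391) with Benjamini-Hochberg adjustment over the 5. Median total UMIs was 648 lower in cells with it (lower in 9 of 9 pools, adjusted p = 0.0195, exact test). Differences that did not pass were -1.02 percentage points for 2 strong hashtags (adjusted p = 0.313), -1.69 points for more than 1 TCR beta chain (0.0586), 0.279 points for a clonotype shared with CD8+ cells of the pool (0.313) and 18.9 CPM for 5 other CD8 markers (0.492), all exact. Selection had already left these cells with 0 Cd8a UMIs, a CD8 antibody count of at most 20 and 0 marked doublets. Features of mixed droplets were thus limited in advance, and the tests that did not pass cannot decide on them. Thinning keeps a larger share of a shallow cell's UMIs, and without thinning the depth difference was 401 UMIs higher instead (8 of 9 pools, adjusted p = 0.0391, exact test).

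The CD8 protein in these cells was capped by the selection. In the CD4+ cells the CD8 antibody median was 6, 7 and 4.33 over the pools by rising dose, against 92.2, 127.5 and 119 in CD8+ cells. Markers of the CD4 lineage other than Cd4 (Zbtb7b, Cd40lg, Tnfrsf4, Izumo1r and Foxp3) were also counted in CD8+ cells. These 5 summed to 79.7 to 86.2 CPM in saline pools, 61.1 to 74.7 with the low and 6.98 to 8.65 with the high dose. Against saline, 5 of 5 were lower in CD8+ cells at 50 mg/kg, with a median log2 change of -2.94, where 36.9% of all genes tested were lower. In CD4+ cells at that dose Izumo1r (log2 -2.88) and Tnfrsf4 (-0.54) also fell, Foxp3 rose (0.59) and 2 did not pass. The part of RNA from outside the cell, or from another cell in the droplet, was not tested.

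Antibody counts gave a second view of the coreceptors, with no normalization for staining or capture, so they are values only. The CD4 antibody median in CD4+ cells was 323, 344 and 345 with saline. The low dose gave 471, 534 and 522, and the high dose 369, 354.5 and 393. Every pool of both doses was above the saline pools, whereas Cd4 RNA was lower, but the strongest hashtag of the same cells also rose, with means over pools of 295, 437 and 677. For CD8+ cells the CD8 antibody median was 90.5, 93 and 93, then 119.5, 124 and 139, then 116, 117 and 125, beside hashtag medians of 341, 484 and 712.

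Over all cells of a pool, those with more coreceptor RNA had higher antibody counts, but for Cd8b1 at like depth this held with saline only. Spearman's rho between RNA and antibody counts was 0.209 to 0.329 over the 9 pools for Cd4, 0.403 to 0.519 for Cd8a and 0.179 to 0.474 for Cd8b1. The cells share depth, since the antibody count itself went with total UMIs at 0.282 to 0.584 in CD4+ cells. In cells of 4000 to 6000 UMIs rho was 0.0533 to 0.275 for Cd4 and 0.208 to 0.315 for Cd8a. For Cd8b1 it was 0.206 to 0.241 in the saline pools, -0.0398 to 0.0733 at 5 mg/kg and -0.0666 to -0.0234 at 50 mg/kg. These are descriptions across cells of 1 pool and carry no test.

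Among regulators of the coreceptor loci, 16 genes fixed with earlier results known, 9 were lower and 1 higher in CD4+ cells with the low dose (median log2 -0.22, all genes -0.010), and with the high dose 6 lower and 5 higher (median -0.0039, all genes -0.012). In CD8+ cells 8 were lower and 1 higher with the low dose (median -0.16), and with the high dose 10 lower and 4 higher (median -0.62, all genes 0.00097). Of all genes tested, 25.6% were lower and 26.1% higher in CD4+ cells with the low dose and 35.8% and 34.7% with the high dose, so the list's high-dose counts in CD4+ cells were near the background. The shares in CD8+ cells were 30.3% lower and 29.9% higher, then 36.9% and 37.1%. With library size scaling 15 and 13 were lower in CD4+ cells and 16 and 12 in CD8+ cells, and Tcf3 (5 mg/kg, both lineages), Satb1 (CD4+, 50 mg/kg) and Gata3 (CD8+, 50 mg/kg) turned. Zbtb7b, which keeps Cd4 on and Cd8 genes off, had a log2 value of -0.061 (SE 0.07, adjusted p = 0.425) in CD4+ cells at 50 mg/kg and fell by 1.79 (SE 0.16) in CD8+ cells, where it is one of the off-lineage markers above. Runx3, the silencer of Cd4 in CD8+ cells, fell there by 0.49 (SE 0.05) and rose by 0.20 (SE 0.05) in CD4+ cells, a rise that turned to a fall with library size scaling. The largest change among the 16 in both lineages was that of Tox, needed for CD4 lineage development, which fell by 3.39 (SE 0.09) in CD4+ and by 4.07 (SE 0.10) in CD8+ cells at 50 mg/kg. Tcf7, a Wnt pathway factor of T cell development, fell by 1.82 and 1.07, the E protein Tcf12 by 1.15 in CD4+ cells, and Ets1 by 0.99 in CD8+ cells (all past the threshold, edgeR).

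The signalling partners of the coreceptors split. Of 12, 8 were higher and 4 lower in each lineage with the low dose (median log2 0.33 in CD4+ and 0.38 in CD8+ cells). With the high dose 7 rose and 4 fell in CD4+ cells, and 8 rose and 4 fell in CD8+ cells (medians 0.31 and 0.45). Beside them stand the shares of all genes just given, 26.1% and 29.9% higher in CD4+ and CD8+ cells with the low dose and 34.7% and 37.1% with the high dose. Lck, the kinase that CD4 and CD8α hold, rose by 0.39 (SE 0.04) and 0.66 (SE 0.04) in CD4+ cells and by 0.49 (SE 0.04) and 0.86 (SE 0.04) in CD8+ cells, so it rose where Cd4 fell. Lat, the adaptor phosphorylated downstream, rose by 1.05 and 1.00 at 50 mg/kg, and the CD3 chain gene Cd3d by 0.80 and 1.14. Fyn, the other Src kinase of the receptor, fell by 0.89 and 1.09 (edgeR). With library size scaling the low dose had 4 partners higher and 5 lower in CD4+ cells (median -0.029) and 4 higher and 6 lower in CD8+ cells (median -0.047), and Csk and Zap70 turned to lower values. The high dose then had 4 higher and 6 lower in CD4+ cells and 5 higher and 5 lower in CD8+ cells, and Csk and Cd247, in CD8+ cells also Zap70, turned to lower values.

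CD8 markers other than the members (Runx3, Klrk1, Klrd1, Eomes and Crtam) gave a comparison for Cd8b1. In CD4+ cells 1 was higher and 2 lower with the low dose, and with the high dose, where Cd8b1 fell, 4 were higher and 1 lower (3 and 2 with library size scaling, under which Runx3 turned), where 34.7% of all genes were higher and 35.8% lower. Klrk1, an activating receptor of cytotoxic cells, rose there by 1.93 (SE 0.08), and Eomes, an effector and memory factor, by 1.75 (SE 0.14), while Crtam, an adhesion molecule of cytotoxic cells, fell by 1.19 (SE 0.29). In CD8+ cells 3 were higher and 2 lower at each dose. Of all genes there, 29.9% were higher and 30.3% lower with the low dose, and 37.1% and 36.9% with the high dose. With library size scaling 1 was higher and 2 lower with the low dose, under which Crtam and Klrk1 turned, and 2 and 2 with the high dose. Of the CD4 markers in CD4+ cells, 2 rose and 1 fell with the low dose, and 1 rose and 2 fell with the high dose, with Izumo1r, a folate receptor family protein of T cells, lowest at -2.88 (SE 0.12, edgeR). The high-dose count of these 5 genes was 0 higher and 4 lower with library size scaling (median -0.50), and 2 of 5 lower is near the 35.8% of all genes.

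The genes most like a member were sought over the 22 clusters of both lineages by Pearson's r of log2(CPM + 1), with no test, since clusters share libraries and depth and the lineages were selected on 2 members. Cd8a and Cd8b1 were nearest each other (0.990), then came the lncRNA Gm44175 at 0.951 and 0.966 and Gm44174 at 0.933 and 0.931, both in the Cd8 locus. Nearest to Cd4 were Zbtb7b (0.938), Cd40lg (0.935), Tspan32 (0.867), Trib2 (0.866) and Trat1 (0.864). Within one lineage the pairing did not hold: over 26 combinations of CD8 cluster and dose Cd8b1 was most like Ly6c2 (0.921), Klrd1 (0.912), Pls1 (0.893), Cd163l1 (0.859) and Ccl5 (0.855), and Cd8a like Zfp36l1 (0.747), Trim8 (0.733), Kdm6b (0.727), Cdk7 (0.722) and Wdr77 (0.710). Over 34 combinations in CD4+ cells Cd4 was most like Cyld (0.935), Akap13 (0.933), Lnpep (0.932), Itpkb (0.929) and Kmt2a (0.928).

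The neighbours in the Cd8 locus were low in CD8+ cells and lower in CD4+ cells. Gm44174, on the same strand as Cd8a, averaged 4.09, 3.11 and 5.50 CPM in CD8+ cells by rising dose, from 91, 59 and 155 UMIs, and was higher at 50 mg/kg (log2 0.95, SE 0.19, adjusted p = 0.000198, edgeR). Smyd1, a methyltransferase gene next to Cd8b1 on the other strand, averaged 15.5, 10.3 and 17.6 and was also higher at 50 mg/kg after TMM scaling (log2 0.71, SE 0.11, adjusted p = 1.58e-05, edgeR). The averages are plain shares of the library, on which Smyd1 pools lay at 14.1 to 16.3 CPM with saline and 16.4 to 18.6 with the high dose, so the log2 changes here are larger than the averages show (the middle of all genes stood at -0.53 by library size). Gm44175, on the minus strand, did not pass at 50 mg/kg (log2 -0.018, SE 0.22). In CD4+ cells at 50 mg/kg Gm44174 had 2 UMIs in all, Smyd1 5 and Gm44175 1. Whether reads of Gm44174 and of Cd8a, whose annotated start lies beside it, were kept apart was not tested.

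No coreceptor difference between TEa cells and other CD4+ cells passed the test. In 7 pools with at least 10 TEa cells, 264 in all, Cd4 averaged 503 ± 152 CPM in TEa and 569 ± 178 in other CD4+ cells (lower in 6 of 7 pools, log2 -0.22, SE 0.08, adjusted p = 0.157, edgeR with pool as a block). Cd8b1 was 114 ± 43.7 and 106 ± 46.8 (log2 0.12, SE 0.13, adjusted p = 0.848, edgeR). Of 10059 genes, 2.66% differed. Only 1 of these pools was from the 50 mg/kg group.

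Clonal expansion went with a small difference in Cd8b1. Cells of clonotypes with at least 2 cells in their pool and lineage were compared with cells of single clonotypes in 9 pools. Among CD8+ cells, Cd8b1 was lower in 2662 expanded cells, by 0.14 on the log2 scale (SE 0.03, adjusted p = 0.000602, edgeR), in 8 of 9 pools, and 13.7% of 10075 genes differed. Cd8a was lower in 6 of 9 pools but did not pass (log2 -0.10, SE 0.03, adjusted p = 0.0539, edgeR). The 6 were the saline and 5 mg/kg pools, with 0.807 to 0.970 of the plain CPM of single clonotypes. The pools at 50 mg/kg had 1.036, 1.032 and 1.020, and for Cd8b1 1.006, 0.997 and 0.880. A difference by dose was not tested. In CD4+ cells, with 1701 expanded cells, neither Cd4 (log2 -0.078, SE 0.04, adjusted p = 0.134) nor off-lineage Cd8b1 (log2 -0.17, SE 0.07, adjusted p = 0.0893) passed by edgeR, while 17.4% of 9924 genes differed.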

How the data were processed

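The deposited counts were whole UMI counts per gene and cell from 10x 5′ libraries, made by the authors with Cell Ranger and Seurat 3.0.0 on build mm10 per the submitters' processing notes. Deposited tables also gave antibody and hashtag counts, pool, cluster and clonotype of each cell, and the authors' fraction of mitochondrial UMIs, which was not used. Demultiplexing, the lineage rule and doublet removal are not given in the sources used here, and the deposited cells hold 0 marked doublets. The numbers of the CD8 clusters were matched to the study's names by their shares of cells per group and by marker genes.

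UMIs were summed per pool, lineage and, where stated, cluster (at least 10 cells per pool), and tested with edgeR 4.0.16 in R 4.3.3 (filterByExpr, TMM, quasi-likelihood, all 9 pools in 1 fit, Benjamini-Hochberg over all genes tested, threshold 0.05). Pool was a block for contrasts within pools. The p-values measure the spread between pools of 1 capture per group. Values per pool were tested by exact permutation of the Jonckheere-Terpstra trend over 1680 assignments. Single cells were thinned to 2000 UMIs where shares were compared. A simulated data set with 200 changed genes was used to test the fits. Named genes were the 3 members, all lists counted whole, Lck, Zbtb7b, Runx3 and up to 3 further list genes with the largest change at 50 mg/kg, and the 5 genes most like a member. The members and lists were chosen with earlier results of these data known. The zero-truncated rate, the ratio of Cd8b1 to Cd8a, off-lineage UMIs per cell and the fits of cells of 4000 to 6000 UMIs were chosen after seeing the data, as were their alternatives. The off-lineage measures could be had for Cd8b1 alone, since the cells had been selected on the other members. Other alternatives were DESeq2 1.42.0, other scalings and filters, subsets of cells and leaving out each pool.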

Additional observations from a re-analysis of the deposited data

Results flagged for a closer look

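Cd8b1 changed differently with dose in the 2 lineages of the same pools. The change in CD8+ cells minus that in CD4+ cells was 0.86 at 5 mg/kg and 3.77 at 50 mg/kg on the log2 scale, each past the threshold of the interaction test in edgeR. Beside it stood off-lineage Cd8b1 UMIs per CD4+ cell of 0.545, 0.463 and 0.158 by rising dose. The part of RNA from outside the cell in this difference was not tested.

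At 5 mg/kg Cd4 passed the threshold (edgeR) as higher in CD4 cluster C6 (log2 0.57), with every pool above the saline pools. It passed as lower, with every pool below the saline pools, in 4 other clusters. By the same 2 conditions Cd8b1 was higher in C4 (log2 0.93) and C6 (log2 0.69), and lower in 4 other CD4 clusters. Clusters that were lower in every pool but did not pass are not in these counts. The differences between clusters were not themselves tested. Median depth fell from 2475 to 1506 UMIs in C4 and from 5675 to 2536 in C6, and its part in these rises was not tested.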

How the results depend on the processing

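Of 403 values from alternatives of 35 results, 373 kept their direction and side of the threshold or, for counts of clusters, stayed near the main count. Single clusters could still cross the threshold where the count was kept. With library size scaling Cd8a in CD8+ cells turned to -0.32 at 5 mg/kg and fell to 0.047, not past the threshold, at 50 mg/kg. The share of higher among called genes then moved from 50.4% and 49.2% to 13.9% and 20.4% in CD4+ cells (5 and 50 mg/kg) and from 49.7% and 50.1% to 15.8% and 19.9% in CD8+ cells. Counts of clusters past the threshold on that scale were 8 for lower Cd4, 7 for lower off-lineage Cd8b1, 0 for higher Cd8a and 3 for higher Cd8b1 at 5 mg/kg, and 1 for higher Cd8a at 50 mg/kg. In cells of 4000 to 6000 UMIs (chosen after seeing the data) off-lineage Cd8b1 at 5 mg/kg was -0.029 and no longer passed, Cd8a at 5 mg/kg was 0.17 and passed, and 3635 genes were called in CD4+ cells at 5 mg/kg against 5467. Cd8a at 5 mg/kg also passed with only the 2 groups compared (0.11) and in 2 of 9 fits without 1 pool (0.066 to 0.14; without CSA 5 mg/kg pool 2 or CSA 50 mg/kg pool 3). TEa Cd8b1 was -0.017 in saline pools and -0.037 to 0.20 without 1 pool, turning without CSA 5 mg/kg pool 3. Expanded cells without 1 pool ranged from -0.10 to -0.063 for Cd4 (passing without saline pool 1) and from -0.22 to -0.14 for Cd8b1 in CD4+ cells (passing without CSA 50 mg/kg pool 3), and from -0.12 to -0.078 for Cd8a, passing without any 1 of the 50 mg/kg pools, and Cd8a was -0.27, past the threshold, for clonotypes of at least 5 cells. Clusters with lower off-lineage Cd8b1 at 5 mg/kg numbered 1 to 4 without 1 pool, 2 without CSA 5 mg/kg pool 1 or 3 or saline pool 3. Without thinning, the features of cells with off-lineage Cd8b1 turned to 401 UMIs, 1.63 points for hashtags, 0.782 points for beta chains and -6.36 CPM for CD8 markers. With at least 2 UMIs they were -4.29 points for beta chains, past the threshold, and -0.0373 points for shared clonotypes. No paired analysis was possible because each group had hashtags and mice of its own, so pool numbers do not match across groups. The interaction without off-lineage cells was fitted but left out, since Cd8b1 is then 0 in CD4+ cells. At 50 mg/kg CD4 cluster C4 held 45 cells at a median of 2053 UMIs, which limits its values. The causes of these shifts were not tested.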
